A study of Mus musculus with 8 samples.

Results

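Mos, Fbxo43, Fbxo5, Plk1, Cdc20, Fzr1, Cdc16, Cdc23 and Cdc27 encode the kinase that holds the mouse egg in metaphase II, together with regulators and core subunits of the anaphase-promoting complex (APC/C). These 9 genes were taken by their symbols from 52636 identifiers, of which 27230 had a count in at least 1 library. They and the lists of their pathway were chosen with earlier results of these data known. All 9 passed the filter on low counts, as did 13641 genes in all. The RNA came from wild-type mouse embryos (background strain B6C3F1 x CD1, mated after hormone treatment), pooled in groups of 10 per library by the study's methods and lysed on the day after injection. The 3 ZP3 Trim-away libraries are from zygotes injected at 15 h post hCG with 0.2 mg/mL of mCherry-Trim21 mRNA, with an anti-ZP3 antibody (1 mg/mL) and Oregon Green dextran beads as tracer (0.02 mg/mL). The 4 buffer libraries are from zygotes that received the same mRNA and beads with antibody buffer in place of the antibody, and 1 library is from non-manipulated embryos. By the labels the Trim-away embryos were still at the 1-cell stage and the buffer embryos at the 2-cell stage, so the antibody and the stage cannot be told apart. The labels do not state that replicates came from separate collections, so the p-values measure the spread between these pools. Values of the non-manipulated embryos come from that lone library and carry no error.

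The APC/C is a ubiquitin ligase that ends metaphase by marking securin and the B cyclins for the proteasome. In the ovulated egg, Mos drives a MAP kinase cascade, and that cascade protects Fbxo43 (Emi2), an inhibitor that keeps the APC/C off. At fertilization, calcium-activated CaMKII and Plk1 prepare Fbxo43 for the SCF-bTrCP ligase, the APC/C becomes active and the zygote leaves meiosis. In the mitotic cycles that follow, the related Fbxo5 (Emi1) restrains the APC/C in interphase, and the co-activators Cdc20 and Fzr1 (Cdh1) take turns in bringing it its substrates. Transcripts are what was counted here, and the level and activity of the proteins were not measured.

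The sequences before the start sites of Cdc20, Plk1 and Fbxo5 are shown because these genes of the mitotic cycle share a pair of short elements, with log2 fold changes, Trim-away over buffer, of -1.55 for Cdc20, -0.08 for Plk1 and 0.35 for Fbxo5. The promoter sequences are RefSeq's on GRCm38.p6, with 250 bases before and 50 after the start site. RefSeq entries were matched for 6 of the 9 genes (Cdc20, Plk1, Fbxo5, Fzr1, Cdc16 and Cdc27). Capitals mark TTTGAA, the cell cycle homology region found in many genes of the G2 and M phases, and CCAAT, the box bound by NF-Y, each searched on both strands. The letters of the 2 motifs do not overlap in these windows.
Cdc20 promoter, chr4:118437294-118437593, minus strand: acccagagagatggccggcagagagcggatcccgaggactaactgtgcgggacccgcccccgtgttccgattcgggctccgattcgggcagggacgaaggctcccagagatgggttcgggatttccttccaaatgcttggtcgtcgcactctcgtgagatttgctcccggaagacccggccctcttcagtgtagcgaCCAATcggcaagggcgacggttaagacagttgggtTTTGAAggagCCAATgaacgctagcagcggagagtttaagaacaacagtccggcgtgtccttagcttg
Plk1 promoter, chr7:122159185-122159484, plus strand: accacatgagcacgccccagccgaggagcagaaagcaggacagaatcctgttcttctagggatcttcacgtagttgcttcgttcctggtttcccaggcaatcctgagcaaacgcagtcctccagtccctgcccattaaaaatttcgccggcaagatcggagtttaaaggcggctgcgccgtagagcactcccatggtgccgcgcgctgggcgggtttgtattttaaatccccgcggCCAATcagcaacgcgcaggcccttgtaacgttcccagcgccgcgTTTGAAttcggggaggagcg
Fbxo5 promoter, chr10:5805416-5805715, minus strand: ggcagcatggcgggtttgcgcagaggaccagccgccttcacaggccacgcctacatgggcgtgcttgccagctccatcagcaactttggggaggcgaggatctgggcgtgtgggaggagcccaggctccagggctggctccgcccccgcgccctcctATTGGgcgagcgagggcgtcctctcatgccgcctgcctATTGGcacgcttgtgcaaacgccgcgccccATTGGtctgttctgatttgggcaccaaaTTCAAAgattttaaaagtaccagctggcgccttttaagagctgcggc

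TTTGAA began 18 bases before the start site of Cdc20, at base 31 after that of Plk1 and, on the opposite strand, at base 4 after that of Fbxo5. CCAAT occurred at 2 places in the Cdc20 window, at 1 in that of Plk1 and at 3 in that of Fbxo5. Of 32817 promoters of the same length, 17.9% held TTTGAA, 37.4% held CCAAT and 6.94% held both. Fzr1 and Cdc27 held CCAAT without TTTGAA, and Cdc16 held neither in these 300 bases. A match is a description of the letters and does not show that a factor binds there.

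Eggs and zygotes hold stored messages whose poly(A) tails are lengthened in the cytoplasm, through an element near the polyadenylation hexamer. For Mos, whose translation in the egg is known to depend on such control, for Fbxo43 and for Cdc20, 30 bases around the last hexamer are shown. They come from the GENCODE M21 transcripts, and capitals mark the hexamers AATAAA or ATTAAA and the element TTTTAT or TTTTAAT.
Mos (Mos-201): atatttttaggaAATAAAgttaccacgaac
Fbxo43 (Fbxo43-201): TTAAAactaataATTAAAtttaaaatttac
Cdc20 (Cdc20-201): TTTTATTTTATtttttctAATAAAgttcgt

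The hexamer began 22 bases from the end of the annotated Mos transcript, 26 from that of Fbxo43 and 22 from that of Cdc20. The first capitals of the Fbxo43 window are the end of an earlier hexamer. The Cdc20 window held 2 overlapping elements just before its hexamer. In the last 100 bases of the annotated transcripts of Mos and Fbxo43 no such letters occurred, and Fbxo5 held 1 element. Over 21736 principal coding transcripts, 16.5% held the element in that stretch and 74.2% held a hexamer. Annotated ends may not be the ends used in these embryos.

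Total counts per library ran from 13228428 to 15379933 in Trim-away, from 17615416 to 22427747 in buffer, and came to 22248022 in the non-manipulated library. Counts were turned into CPM, counts per 1000000 counts of the library size scaled by TMM, and 3 counts amount to between 0.126 and 0.258 CPM. Trim21, carried by the injected mRNA, was at 2125 CPM in Trim-away replicate 1, at 0 in replicate 2 and at 3.53 CPM in replicate 3, against 959 to 8640 CPM in buffer and 0 in the non-manipulated library. Trim-away replicates 2 and 3 thus go against their labels in this respect. Trim-away stands here for the libraries labelled so, and counts of called genes are also given without these 2. Zp3 mRNA, which the antibody does not target, was at 28.3 to 55.6 CPM in the libraries labelled Trim-away and at 105 to 141 CPM in buffer (edgeR adjusted p = 0.055). All 9 oocyte and early embryo markers had counts, and their summed level was 3460 to 6664 CPM in Trim-away and 1656 to 2535 CPM in buffer. Of these markers Bmp15 and Nlrp5 passed the test as higher in Trim-away, and Bmp15 alone gave 3689 of the 6664 CPM in replicate 1. Zscan4d, Ooep and, by a narrow margin, Tle6 were above buffer in every Trim-away library without passing (log2 fold change 1.27, 2.43 and 0.95). Zp3 and Oosp1 of the same list were below buffer in every Trim-away library without passing (log2 fold change -1.36, and -0.60 with an edgeR adjusted p of 0.130), and Gdf9 and Zar1 overlapped between the groups. Of 8 cumulus markers, Amh, Fshr, Foxl2 and Ptx3 were at 0 in every library, and the sum of the list was 7.82, 48.8 and 45.3 CPM in Trim-away replicates 1 to 3, 1.16 to 20.98 CPM in buffer and 0 in the non-manipulated library. Sperm markers summed to at most 4.04 CPM in Trim-away and 4.03 CPM in buffer, and blood markers to at most 4.11 and 6.22 CPM. Oviduct markers summed to 16.3 to 220 CPM in Trim-away and 310 to 364 CPM in buffer. Epcam alone was at 5.07 to 168 CPM in Trim-away and 278 to 342 CPM in buffer. In no library did Foxj1 exceed 1.69 CPM, Pax8 0.246, Krt8 7.68, Ovgp1 18.2 or Cdh1 37.9 CPM, so the oviduct sum in buffer mostly describes Epcam. Fewer cells of a type and less RNA per cell cannot be told apart in pooled embryos.

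None of the 9 genes passed edgeR's quasi-likelihood test after Benjamini-Hochberg adjustment over 13641 genes at 0.05, where 941 genes (6.90%) did, 407 higher (2.98%) and 534 lower (3.91%) in Trim-away. With 1 library left out, the number of genes called lay between 408 (without Trim-away replicate 2) and 694 (without Trim-away replicate 1), and none of the 9 was called in any of these fits, with 2 or 3 of them at an unadjusted p under 0.05. In the full comparison 3 of the 9 had an unadjusted p under 0.05 (Cdc20, Fbxo43 and Cdc27), a class that held 21.3% of all genes. Groups did not overlap for Fbxo43, higher in every Trim-away library, and for Cdc20, lower in every one, which is 2 of 9 genes against 28.6% of all genes. With so few genes, neither share is read as a result about them. DESeq2 called 2 of the 9 (Fbxo43 higher, Cdc20 lower), where it called 2911 of the 22698 genes with a p-value. DESeq2 can leave genes of low mean count out of its adjustment, so the share among adjusted genes may be higher. With limma-voom Cdc20 alone was called, among 1412 of 13641 genes. Without Trim-away replicates 2 and 3, the log2 fold change of Cdc20 was -2.81, in a fit with 1 Trim-away library and the spread of the buffer group. The filter then kept 18279 genes, against 13641 in the full comparison. Their median log2 fold change was -1.24, so the medians of these 2 fits cover different genes. The median log2 fold change, Trim-away over buffer, was 0.65 for the 9 genes and -0.04 for all genes tested.

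**Figure D1:**
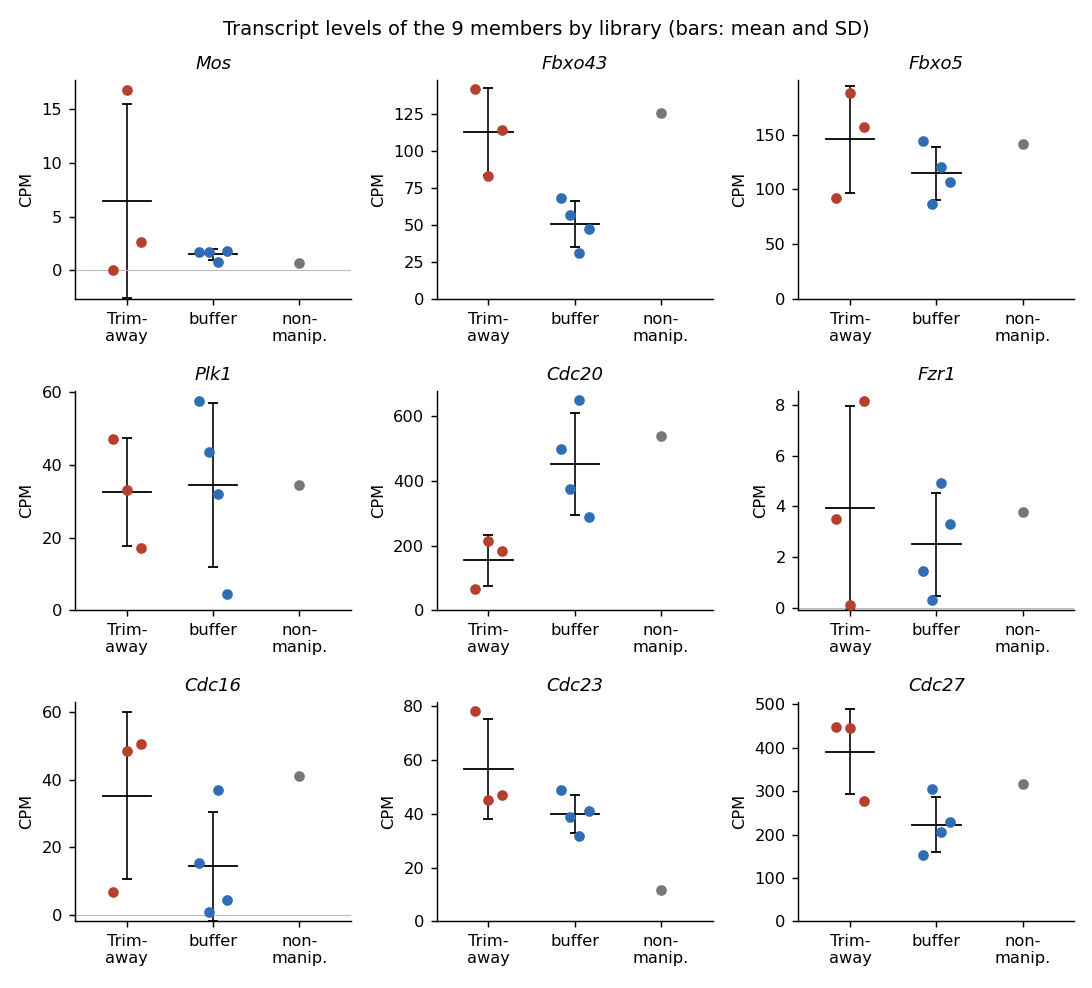
Level of each of the 9 genes in CPM (TMM-scaled) in the 3 Trim-away, 4 buffer and 1 non-manipulated libraries; each point is a library, and bars give mean and SD. The 3 Trim-away libraries lie above the 4 buffer libraries for Fbxo43 and below them for Cdc20, and the groups overlap for the other 7 genes.

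Fbxo43 (chr15:36150060-36164884 in GENCODE M21), the meiotic inhibitor of the APC/C, was at 142, 83.6 and 114 CPM in Trim-away replicates 1 to 3, at 68.2, 57.1, 31.0 and 47.5 CPM in buffer replicates 1 to 4, and at 126 CPM in the non-manipulated library. Every Trim-away library was above every buffer library, and the non-manipulated library lay among the Trim-away values, above the whole buffer group. The means were 113 ± 29.5 CPM (SD, n = 3) in Trim-away and 51.0 ± 15.8 CPM (SD, n = 4) in buffer. The log2 fold change was 1.16 (SE 0.38, 95% interval 0.29 to 2.02), with an edgeR adjusted p of 0.113. It stayed positive in all 19 alternatives, between 0.95 and 1.45, and the adjusted p lay between 0.025 (DESeq2) and 0.339.

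Mos (chr4:3870657-3872105), a gene of a single exon and the kinase at the head of the egg's MAP kinase cascade, was scarce in most libraries. Its counts were 0, 259 and 41 in Trim-away replicates 1 to 3, 36, 36, 18 and 30 in buffer replicates 1 to 4, and 15 in the non-manipulated library. In CPM this was 0, 16.8 and 2.63 in Trim-away, 1.68, 1.68, 0.756 and 1.85 in buffer, and 0.652 in the non-manipulated library. The Trim-away libraries spread on both sides of the buffer group, with 1 library at 0, where 3 counts would be 0.258 CPM, and 1 library above all others. The log2 fold change of 2.12 (SE 1.78, 95% interval -1.91 to 6.15, edgeR adjusted p = 0.582) rested on replicate 2 and was -0.13 without it. Reads from DNA and from mRNA of a gene without introns cannot be told apart by splicing.

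Fbxo5 (chr10:5799160-5805600), the inhibitor of the APC/C in mitotic cycles, was at 92.4, 188 and 157 CPM in Trim-away replicates 1 to 3, at 144, 87.0, 120 and 107 CPM in buffer replicates 1 to 4, and at 142 CPM in the non-manipulated library. The groups overlapped, and Trim-away replicate 1 lay among the lower buffer values. Its log2 fold change was 0.35 (SE 0.33, 95% interval -0.39 to 1.09, edgeR adjusted p = 0.635), an interval that leaves room for a change of either sign. Trim-away replicates 2 and 3 held little or no Trim21 and the higher sum of cumulus markers, most of it from Cyp19a1. Fbxo5, Mos, Cdc16 and Cdc20 were above Trim-away replicate 1 in both of these libraries. Fbxo43, Plk1, Cdc23 and Cdc27 were below replicate 1 in both. Fzr1 was below replicate 1 in replicate 2 and above it in replicate 3. Whether Trim21 or the cumulus markers had a part in these levels was not tested. Without those 2 libraries the log2 fold change of Fbxo5 was -0.34 and that of Cdc16 -1.13. The median in that fit was -1.24 over 18279 genes, a larger set than the 13641 of the full comparison.

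Plk1 (chr7:122159439-122169873), the kinase of mitotic entry that also primes Fbxo43 for destruction, was at 47.2, 33.2 and 17.3 CPM in Trim-away, at 57.7, 43.5, 32.0 and 4.37 CPM in buffer and at 34.5 CPM in the non-manipulated library. Buffer replicate 4 was lowest of all 8 libraries, and the Trim-away values lay inside the range of the buffer group. On the log2 scale the fold change was -0.08 (SE 0.79, 95% interval -1.88 to 1.72, edgeR adjusted p = 0.978). Its sign turned in 7 of 19 alternatives, so no direction can be given.

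Cdc20 (chr4:118432901-118437352), the co-activator that starts anaphase, was at 65.9, 214 and 184 CPM in Trim-away replicates 1 to 3, at 498, 375, 649 and 289 CPM in buffer replicates 1 to 4, and at 538 CPM in the non-manipulated library. The highest Trim-away library was below the lowest buffer library, and the non-manipulated library lay within the buffer range. The means were 154 ± 78.1 CPM (SD, n = 3) in Trim-away and 453 ± 157 CPM (SD, n = 4) in buffer, a mean 2.93-fold higher in buffer. The log2 fold change was -1.55 (SE 0.44, 95% interval -2.55 to -0.55), with an edgeR adjusted p of 0.071 and an unadjusted p of 0.0068. It was negative in all 19 alternatives and past the threshold in 4 of those with at least 2 libraries a group, namely DESeq2 (adjusted p = 0.021), limma-voom (0.043), edgeR without a filter (0.033) and limma on log2(RPKM + 1) (0.037). From Trim-away replicate 1 alone it was -2.81, in the fit that kept 18279 genes and had a median of -1.24 over them. With 1 library left out the edgeR adjusted p lay between 0.085 and 0.150.

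Fzr1 (chr10:81366222-81378516), the co-activator of late mitosis and G1, was scarce, at 3.52, 0.130 and 8.15 CPM in Trim-away, 1.44, 0.326, 4.92 and 3.32 CPM in buffer and 3.78 CPM in the non-manipulated library. Those levels rest on 41, 2 and 127 counts in Trim-away and on 31, 7, 117 and 54 counts in buffer. The highest and the lowest of the 7 injected libraries were both Trim-away libraries. Its log2 fold change of 0.65 (SE 1.60, edgeR adjusted p = 0.883) had a 95% interval from -2.96 to 4.27.

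The core subunits among the 9 genes belong to the arm of the APC/C built of tetratricopeptide repeat proteins, where Cdc27 and Cdc23 take part in binding the co-activators. Cdc27 (chr11:104502745-104550620) was at 448, 446 and 277 CPM in Trim-away replicates 1 to 3, at 152, 304, 205 and 228 CPM in buffer replicates 1 to 4, and at 317 CPM in the non-manipulated library. Trim-away replicates 1 and 2 were above every other library, while replicate 3 was below buffer replicate 2, so the groups overlapped at 1 value. Its log2 fold change was 0.81 (SE 0.30, 95% interval 0.15 to 1.48), with an edgeR adjusted p of 0.143 and an unadjusted p of 0.022. It was positive in all 19 alternatives, between 0.67 and 1.01, and never past the threshold, the lowest adjusted p being 0.087.

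Cdc23 was at 78.1, 45.0 and 47.0 CPM in Trim-away, at 48.7, 38.7, 31.6 and 40.9 CPM in buffer and at 11.6 CPM in the non-manipulated library. The non-manipulated library was below all 7 injected libraries, and among those only buffer replicate 1 lay above a Trim-away value. A log2 fold change of 0.51 (SE 0.41, 95% interval -0.43 to 1.44, edgeR adjusted p = 0.568) was fitted. Cdc23 shares 1271 exon bases with Kif20a on the opposite strand, and no source here says whether counting used strand, so reads in that stretch cannot be assigned with certainty. Cdc20, Plk1 and Fzr1 share 53, 156 and 4 exon bases with a gene on the opposite strand.

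Cdc16 (chr8:13757676-13781938) varied most among the core subunits, with 6.70, 48.5 and 50.5 CPM in Trim-away, 15.3, 0.977, 36.8 and 4.25 CPM in buffer and 41.3 CPM in the non-manipulated library. In both injected groups some libraries were near the non-manipulated value and others far below it. The coefficient of variation was 70.2% in Trim-away and 113% in buffer, against 25.1% and 28.5% for Cdc27. Its log2 fold change of 1.30 (SE 1.15, edgeR adjusted p = 0.607) had a 95% interval from -1.30 to 3.90.

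The 9 genes differed in their spread as well as in their level. The biological coefficient of variation in the edgeR fit was 0.33 for Cdc27, 0.37 for Fbxo5, 0.42 for Fbxo43, 0.43 for Cdc20 and 0.47 for Cdc23, below the median of 1.07 over all genes tested. For Plk1 it was 0.76, for Cdc16 1.03, for Fzr1 1.40 and for Mos 1.52. By mean CPM over the 8 libraries, Cdc20 stood at percentile 96.5 of the genes tested and Cdc27 at 95.7, while Mos and Fzr1 stood at percentiles 21.4 and 21.1.

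Levels of different genes can be set side by side per length, as CPM per kilobase of merged exons. These exons join all annotated transcripts of a gene (9500 bases for Cdc23, 3103 for Cdc16), so the order depends on the annotation too. On that scale Cdc20 came first in all groups, with 82.7 ± 41.8 in Trim-away (SD, n = 3), 242 ± 83.8 in buffer (SD, n = 4) and 288 in the non-manipulated library. Fbxo5 followed with 72.8 ± 24.3 in Trim-away, 57.2 ± 12.01 in buffer and 70.8 in the non-manipulated library. Cdc27 was next, with 62.5 ± 15.7 in Trim-away, 35.6 ± 10.1 in buffer and 50.8 in the non-manipulated library. In buffer the lowest Cdc20 library (155) was above the highest Fbxo5 library (72.0), whereas in Trim-away the libraries of Cdc20 (35.3 to 114), Fbxo5 (46.1 to 93.8) and Cdc27 (44.4 to 71.6) overlapped. Fbxo43 came next in Trim-away with 28.1 ± 7.30 CPM per kilobase and in the non-manipulated library with 31.1, while in buffer it came after Plk1 with 12.6 ± 3.91. Plk1, at 14.8 ± 6.81 in Trim-away, 15.6 ± 10.3 in buffer and 15.7 in the non-manipulated library, was its neighbour in each order, and the libraries of these neighbours overlapped in both injected groups. Cdc16 and Cdc23 came next, at 11.4 ± 7.97 and 5.97 ± 1.95 in Trim-away and 4.62 ± 5.22 and 4.21 ± 0.742 in buffer, and their libraries overlapped in both groups. Mos and Fzr1 were last, with means of 4.47 and 0.877 in Trim-away and 1.03 and 0.557 in buffer, and they too overlapped in both groups.

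**Figure D2:**
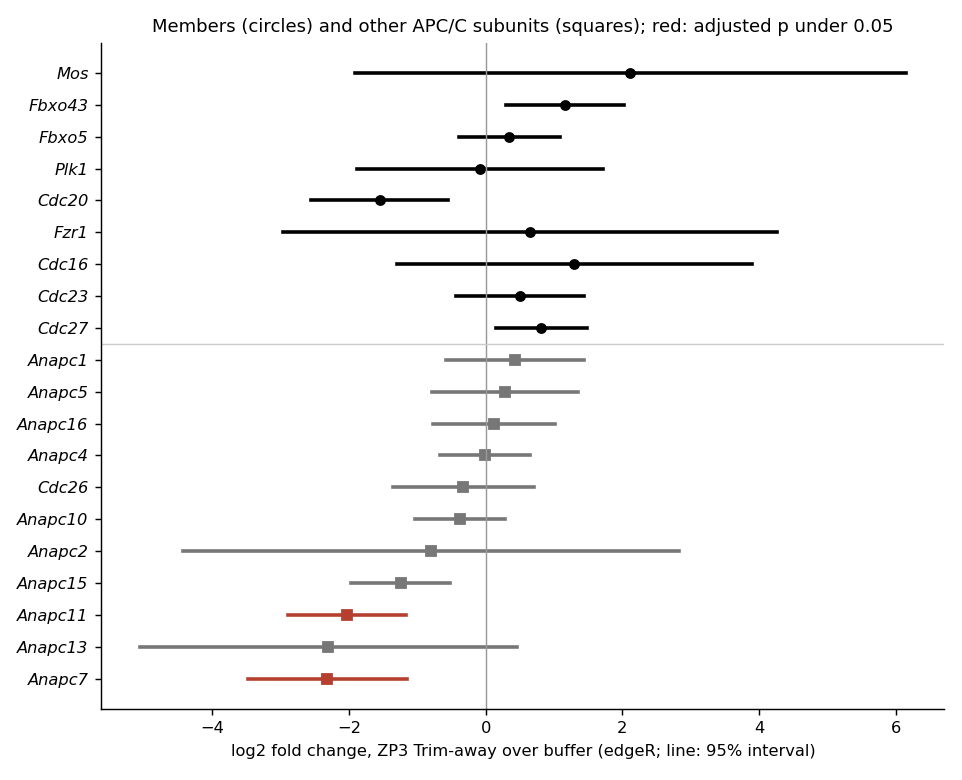
Log2 fold change, Trim-away over buffer, with its 95% interval from edgeR for the 9 genes (circles, in order of role) and the other 11 APC/C subunits (squares, sorted); red marks an adjusted p under 0.05. The intervals of Fbxo43, Cdc27, Cdc20 and Anapc15 leave out 0 without passing the adjusted test, and Anapc7 and Anapc11 are the subunits that pass it.

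Ratios of counts within a library do not depend on the scaling between libraries, and 3 were compared between Trim-away and buffer by a two-sided exact permutation test over the 35 splits of the 7 injected libraries, whose smallest p is 0.0286. The log2 ratio of Fbxo43 over Fbxo5, the meiotic over the mitotic inhibitor, was 0.62, -1.17 and -0.46 in Trim-away and -1.08, -0.61, -1.95 and -1.17 in buffer, with -0.17 in the non-manipulated library. Trim-away replicate 1 stood above the rest while replicate 2 lay with the buffer group, and the means differed by 0.87 (exact permutation p = 0.171, 0.514 after adjustment over the 3 ratios). From Trim-away replicate 1 alone, without the 2 libraries low in Trim21, the difference was 1.83.

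The log2 ratio of Fzr1 over Cdc20, the later over the earlier co-activator, was -4.16, -9.69 and -4.47 in Trim-away, -8.34, -9.81, -7.02 and -6.39 in buffer and -7.12 in the non-manipulated library. Trim-away replicates 1 and 3 were above all buffer libraries and replicate 2, with 2 Fzr1 counts, was next to the lowest. The means differed by 1.78 (exact permutation p = 0.343, adjusted 0.514). In every library Cdc20 had the more counts by far.

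For Mos over Plk1, the meiotic over the mitotic kinase, the log2 ratio was -8.11, -0.98 and -2.66 in Trim-away, -5.03, -4.62, -5.26 and -1.19 in buffer and -5.55 in the non-manipulated library. The Trim-away values enclosed the buffer values, but the lowest of them, in replicate 1, rests on 0 Mos counts and so on the prior count of 2. The difference of 0.11 (exact permutation p = 0.971, adjusted 0.971) was far inside the spread of the libraries, and it changed sign without buffer replicate 1 (-0.22), 2 (-0.09) or 3 (-0.30) and without Trim-away replicate 2 (-1.36) or 3 (-0.52).

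**Figure D3:**
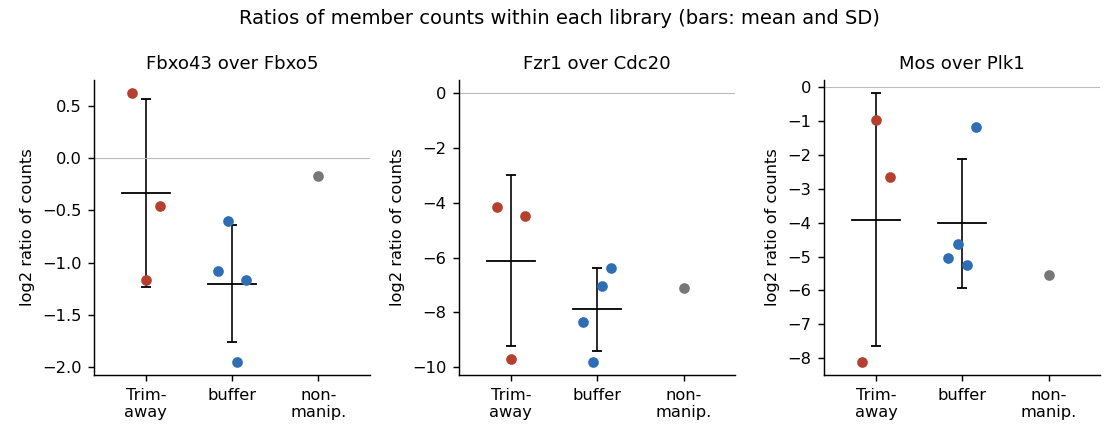
Log2 ratio of counts (prior count 2) of Fbxo43 over Fbxo5, Fzr1 over Cdc20 and Mos over Plk1 within each of the 3 Trim-away, 4 buffer and 1 non-manipulated libraries, with mean and SD. In each ratio the Trim-away and buffer libraries overlap, and the mean differences are 0.87, 1.78 and 0.11.

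The other 11 subunits of the APC/C gave 2 lower and 0 higher calls in Trim-away, and 9 did not pass (median log2 fold change -0.37, against -0.04 for all genes). Anapc11, the RING subunit that receives the charged E2 enzyme, was at 15.6, 20.4 and 19.8 CPM in Trim-away and at 83.0, 75.7, 74.7 and 71.0 CPM in buffer, with 76.9 CPM in the non-manipulated library. It was lower in Trim-away by 2.03 on the log2 scale (SE 0.38, edgeR adjusted p = 0.018). Anapc7, a repeat subunit of the same arm as Cdc27, was at 13.1, 55.8 and 32.0 CPM in Trim-away, at 218, 132, 198 and 121 CPM in buffer and at 161 CPM in the non-manipulated library. Its level was lower in Trim-away by 2.31 on the log2 scale (SE 0.52, edgeR adjusted p = 0.032). Over all genes 3.91% were called lower. Groups did not overlap for 5 of the 11, all lower in Trim-away, while over all genes this held for 28.6%, with 2112 of 13641 lower. Among the 5, Anapc15 had a log2 fold change of -1.24 (95% interval -1.97 to -0.52, edgeR adjusted p = 0.051), and it was called by DESeq2, limma-voom, edgeR on library totals and both fits of limma on RPKM. It was named after its values were seen. The call of Anapc11 was lost when buffer replicate 1 or 2 or else Trim-away replicate 2 or 3 was left out, and that of Anapc7 without any 1 of the buffer replicates or Trim-away replicate 3, with adjusted p up to 0.058 and 0.103. From Trim-away replicate 1 alone, a library also in the full comparison, the log2 fold changes were -2.31 for Anapc11 and -3.71 for Anapc7. The median in that fit was -1.24 over 18279 genes.

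Of the E2 enzymes and genes that handle the APC/C, 0 of 6 tested passed edgeR's test. An unadjusted p under 0.05 was found for 3 of them (21.3% of all genes had one). DESeq2 and limma-voom each called 2 of the list, where they called 2911 of 22698 and 1412 of 13641 genes. Those with the smallest p were Trip13, an ATPase that recycles checkpoint complexes, with a log2 fold change of -2.02 (edgeR adjusted p = 0.064), and Ube2c, the E2 that starts ubiquitin chains, with -0.76 (0.099). Of 6 spindle checkpoint genes, whose products hold Cdc20 back until chromosomes are attached, 1 passed as higher in Trim-away, where 2.98% of all genes did, and 5 did not pass. Ttk, the kinase that starts the checkpoint, was at 902, 773 and 644 CPM in Trim-away, at 50.1, 88.0, 113 and 93.2 CPM in buffer and at 26.7 CPM in the non-manipulated library. Its log2 fold change was 3.17 (SE 0.30, edgeR adjusted p = 0.0040), and it was called with any 1 library left out. Bub3, another checkpoint gene, was below buffer in every Trim-away library with a log2 fold change of -1.99 (edgeR adjusted p = 0.075), and it was called lower by DESeq2, by limma-voom, by both fits of limma on RPKM, by edgeR with no filter and without Trim-away replicate 1. It too was named after its values were seen.

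Among 14 substrates of the APC/C, 1 passed as higher and 1 as lower in Trim-away, and 12 did not pass (median log2 fold change -0.73, against -0.04 for all genes), where 6.90% of all genes were called. The balance depended on the fit, with 1 higher and 3 lower by DESeq2 and by limma-voom, 1 higher and 4 lower by limma on RPKM, and 0 higher and 2 lower by edgeR on library totals. Over all genes DESeq2 called 2911 of 22698 and limma-voom 1412 of 13641. The 2 fits of limma on RPKM called 1552 and 1898 of 13608, and edgeR on library totals 913 of 13641. Ccnb2, a B cyclin, was at 536, 202 and 227 CPM in Trim-away and at 72.6, 143, 122 and 84.1 CPM in buffer, with 92.5 CPM in the non-manipulated library (log2 fold change 1.61, SE 0.40, edgeR adjusted p = 0.048). Its call was lost with any 1 library left out, the adjusted p then being 0.060 to 0.134. Aurka, the Aurora kinase of spindle poles, was at 21.3, 47.7 and 100 CPM in Trim-away and at 397, 351, 464 and 207 CPM in buffer, with 297 CPM in the non-manipulated library (log2 fold change -2.65, SE 0.54, edgeR adjusted p = 0.024). Its call was lost when buffer replicate 1, 2 or 3 or Trim-away replicate 2 was left out (adjusted p up to 0.096).

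In the list of the Mos-MAPK cascade and the calcium signal that ends the arrest, 1 of 9 tested genes passed as higher in Trim-away and 8 did not pass, with 8 positive values and a median log2 fold change of 1.65. Over all genes 2.98% passed as higher, 6686 of 13641 values were positive and the median was -0.04. Map2k1, the kinase directly below Mos, was at 406, 176 and 182 CPM in Trim-away, at 56.6, 49.3, 73.6 and 69.7 CPM in buffer and at 73.9 CPM in the non-manipulated library. The groups were far apart, and the log2 fold change of 2.03 (SE 0.36, edgeR adjusted p = 0.015) was called with any 1 library left out. Of the SCF-bTrCP ligase, which destroys Fbxo43 and Fbxo5 proteins, Cul1 and Skp1a passed as higher in Trim-away (log2 fold change 0.83, edgeR adjusted p = 0.038, and 1.23, 0.022) and the other 3 genes did not pass. Among these, Rbx1 was below buffer in every Trim-away library (272 to 436 CPM against 489 to 637 CPM). Its log2 fold change was -0.69 (edgeR adjusted p = 0.136), and it was called lower without Trim-away replicate 1. Rbx1 was named after its values were seen. Btrc and Fbxw11 overlapped between the groups. The call of Cul1 was lost with any 1 library left out (adjusted p 0.060 to 0.082), and that of Skp1a without buffer replicate 1, 2 or 3 or Trim-away replicate 2 (up to 0.059). Of 8 genes of cytoplasmic polyadenylation and maternal mRNA decay, Cnot7, a deadenylase subunit, passed as higher in Trim-away (log2 fold change 1.56, SE 0.28, edgeR adjusted p = 0.015, but 0.052 without buffer replicate 1) and 7 did not pass. The sum of the oocyte and early embryo markers, much of it Bmp15, was also higher in Trim-away, while Zp3 and Oosp1 of that list had negative values, and their part in these levels was not tested. From Trim-away replicate 1 alone against buffer, all 9 list genes called kept the sign of their log2 fold change. These libraries are also part of the full comparison that picked the genes, so this is no separate support.

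**Figure D4:**
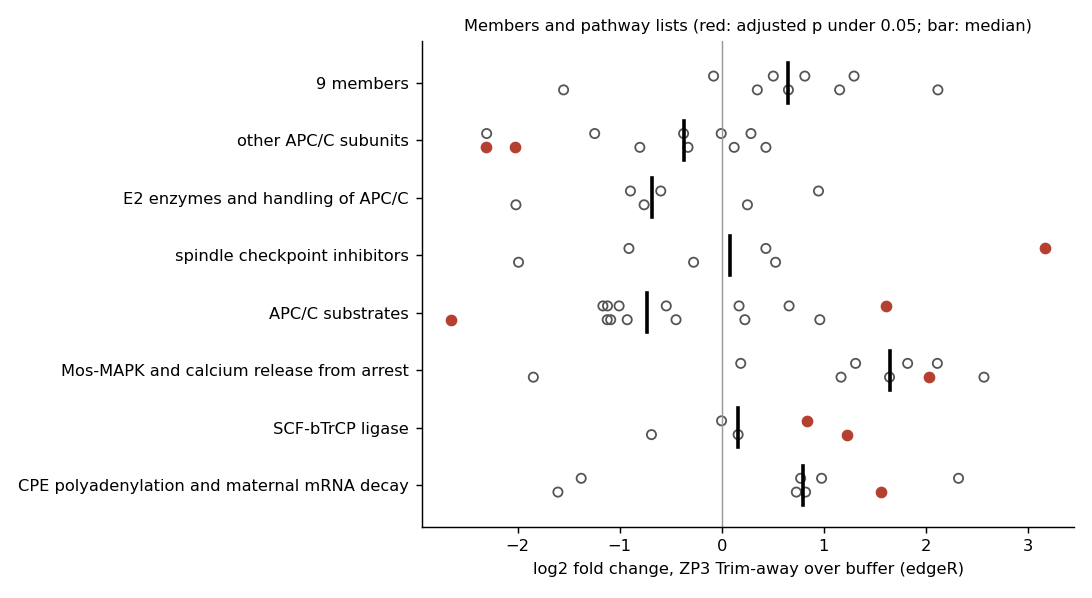
Log2 fold change, Trim-away over buffer, of every tested gene of the 9 genes and of 7 lists of their pathway; filled red points have an edgeR adjusted p under 0.05 and bars mark the median of a list. The 9 genes hold no filled point, the other APC/C subunits hold 2 on the left, and the Mos-MAPK list has its median furthest to the right at 1.65.

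Across the 8 libraries the 9 genes did not follow each other closely. Of 36 pairs, the Pearson correlation of log2 CPM was highest for Fbxo5 with Cdc16 (r = 0.852) and Mos with Fbxo5 (0.669), and lowest for Cdc20 with Cdc23 (-0.687) and with Cdc27 (-0.676). Fbxo43 and Cdc20 had r = -0.615. These points share their libraries and scaling, include the group difference, and are a description over 8 libraries.

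Among 7221 genes with a symbol and a mean of at least 10 CPM, those most like Cdc20 over the 8 libraries were Pdxk (r = 0.993), Zfp707 (0.984) and Tpm3 (0.984). Pdxk, a pyridoxal kinase, was at 42.1 ± 29.4 CPM in Trim-away (SD, n = 3), 228 ± 102 CPM in buffer (SD, n = 4) and 302 CPM in the non-manipulated library. Fbxo43 was nearest to Ampd3 (0.932), Mff (0.932) and Erg28 (0.922), and Mff, a factor of mitochondrial fission, was at 71.6 ± 29.9 CPM in Trim-away, 14.2 ± 10.2 CPM in buffer and 37.9 CPM in the non-manipulated library. Cdc27 was nearest to Hnrnpul2 (0.993), Tmem87a (0.978) and Mgat4a (0.978), Cdc23 to Ficd (0.983), Ubxn2b (0.971) and Lpcat2 (0.967), and Cdc16 to Atxn2l (0.950), Prrc2c (0.943) and Fhod3 (0.940). In the non-manipulated library Cdc23 was at 11.6 CPM, Ficd at 18.2, Ubxn2b at 0 and Lpcat2 at 4.87 CPM, each below both of its group means. That lone library thus weighs on the correlations of Cdc23, and how much was not tested. Fbxo5 was nearest to Ing5 (0.942), Arid2 (0.924) and Stil (0.921), and Plk1 to Dennd2c (0.952), Fig4 (0.945) and Tm2d1 (0.943). The scarce Mos and Fzr1 were nearest to Zbtb41 (0.936), 4933404O12Rik (0.926) and Scrn3 (0.924), and to Dus4l (0.953), Rap1gds1 (0.931) and Reep5 (0.904). The highest of many correlations over 8 points is high by selection, and none of these genes was among the 9 or in their pathway lists.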

How the data were processed

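The deposited table gives the authors' raw counts per Ensembl gene, made from single reads of 72 bases of a low-input library kit. Per the labels and the study's methods, reads were checked with FastQC 0.11.9, trimmed with Trimmomatic, aligned to GRCm38 with HISAT2, sorted with SAMtools and counted with htseq-count. A strand setting for the counting was not found in these sources. The 8 deposited RPKM columns were not used, and PCR duplicates were not separated, so limits for low counts cover counting error only.

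Tools were edgeR 4.0.16, DESeq2 1.42.0 and limma 3.58.1 in R 4.3.3, then scipy 1.17.1, pandas 2.3.3, numpy 2.4.6 and matplotlib 3.10.9 in Python 3.11.15. Genes were filtered with filterByExpr and scaled by TMM, and Trim-away (n = 3) was compared with buffer (n = 4) by edgeR's quasi-likelihood test, with Benjamini-Hochberg adjustment over all genes at 0.05. Groups and doses follow the labels. The study's text instead gives 4 Trim-away and 3 buffer samples, so the group of 1 library may be in doubt, and it gives other doses. Log2 CPM and ratios used a prior count of 2. The code was tested on simulated data. RPKM for an alternative was computed from counts and merged exon lengths of GENCODE M21. The labels give the groups shared replicate numbers, which did not pair the samples (closing section).

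The 9 genes and the pathway and marker lists were chosen with earlier results of these data known. The text names the 9 genes, each list gene past the threshold or otherwise the 2 of a list with the smallest p, Trim21 and Zp3, and for each of the 9 the 3 most correlated genes with a symbol and at least 10 CPM; marker genes and interval or sequence details were added beside them.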

Additional observations from a re-analysis of the deposited data

Results flagged for a closer look

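Of 23 sets of 4 buffer values examined (the 9 genes, the called list genes, Trim21, Zp3 and the 3 ratios), 2 held a library far from the other 3, where chance gives about 1 in 20. Mos was at 0.756 CPM in buffer replicate 3, against 1.68 to 1.85 CPM in the other 3 buffer libraries, a difference between 18 and at least 30 counts. The log2 ratio of Mos over Plk1 was -1.19 in buffer replicate 4, against -5.26 to -4.62 in the other 3, and that library had the lowest Plk1 level of all (4.37 CPM).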

How the results depend on the processing

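The number of genes called among all was 941 of 13641 tested. It was 2911 of the 22698 genes with a p-value with DESeq2 and 1412 of 13641 with limma-voom. With limma on log2(RPKM + 0.1) and log2(RPKM + 1) it was 1552 and 1898 of 13608. With the replicate block it was 0 (2050 at an unadjusted p under 0.05, 2 of them among the 9 genes). It was 408 to 694 with 1 library left out. Of the 9 genes 0 were called, but 2 with DESeq2 and 1 (Cdc20) with limma-voom, with no filter on low counts, with limma on log2(RPKM + 1) and without the Trim-away libraries under 10 CPM of Trim21, an alternative chosen after seeing the data (1227 genes called in all). Same-numbered Trim-away and buffer libraries did not deviate together (correlations -0.0613, 0.00626 and -0.000343), so the numbers do not pair the samples. In that block the ratios differed by 0.88, 2.28 and 1.06 (sign-flip p of at least 0.25, the smallest that 3 pairs allow). Signs that turned were those of genes or ratios within the spread. With limma-voom Mos was at -0.083, Plk1 at 0.087 and Fzr1 at -0.042, and with limma on RPKM Plk1 was at 0.23 and 0.15. With 1 library left out Mos lay between -0.13 (without Trim-away replicate 2) and 2.70, Fzr1 between -0.47 (without Trim-away replicate 3) and 1.25, and Plk1 between -0.45 and 0.29 (without buffer replicate 1), and Plk1 was also positive without Trim-away replicate 3 and buffer replicate 2. Without the 2 libraries low in Trim21, which leaves Trim-away replicate 1, Mos was at -7.82 (a fitted value against a library at 0, no bound), Fbxo5 at -0.34, Plk1 at 0.42, and Cdc16 at -1.13, and the differences in log2 ratio from the buffer mean were -4.08 for Mos over Plk1 and 1.83 for Fbxo43 over Fbxo5. The difference for Mos over Plk1 was -0.50 with a prior count of 0.5, and with 1 library left out it ranged from -1.36 to 2.21, Fbxo43 over Fbxo5 from 0.39 to 1.28 and Fzr1 over Cdc20 from 0.81 to 3.57, where the smallest p allowed is 0.0667 or higher. The share of higher calls among all genes was 43.3%, and it was 32.0% without Trim-away replicate 1. In the other fits with calls and at least 2 libraries a group it was 34.5% to 51.2%. Without the 2 libraries low in Trim21 the median log2 fold change was -1.24 over the 18279 genes that this fit tested. The cause of these differences was not tested. The lowest counts behind a level were 0 for Mos and 2 for Fzr1, both in Trim-away libraries.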
